A study of Homo sapiens with 8 samples.

Results

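A set of 39 genes of glycolysis and of the response to low oxygen was followed across all 8 groups of islet-like cells. The genes were taken by symbol from a fixed list, each symbol matched to its Ensembl identifier, and all 39 were found among the 38592 genes of the deposited table. The list holds 18 glycolytic enzyme genes with lactate dehydrogenase counted among them, 7 genes of transport and flux control, 4 genes of the oxygen-sensing pathway itself, and 10 genes known as its targets. All 39 passed the filter on low counts, PKLR and CA9 at levels near 0.

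H1, an established line of human embryonic stem cells, was the source of all libraries, and its cells were steered towards pancreatic islet cells in culture. They carried a knockout (KO) of ISL1, of PAX6 or of PDX1, each a homeodomain transcription factor of the developing pancreas and islet, or were wild type (WT). On day 11 they were transduced with a vector for ISL1 and blue fluorescent protein joined by an internal ribosome entry site (ISL1 OE) or with the fluorescent protein alone (BFP), and all were harvested on day 18. Under ISL1 OE there were 3 libraries each for ISL1 KO and PAX6 KO and 2 each for PDX1 KO and WT. Under BFP there were 3 each for ISL1 KO, PAX6 KO and PDX1 KO and 2 for WT. The labels do not say how many clones stand behind a knockout line, and the replicates are called biological without saying what was separate, so p-values measure the spread between these libraries.

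Glycolysis turns glucose into pyruvate in the cytosol. Lactate dehydrogenase can reduce that pyruvate to lactate, which leaves through monocarboxylate transporters, while pyruvate dehydrogenase feeds it to mitochondria unless pyruvate dehydrogenase kinases switch the enzyme off. Mature beta cells are known for keeping lactate dehydrogenase, monocarboxylate transporters and hexokinases of low Km at low levels, so that glucose is oxidised in step with its concentration. In low oxygen the prolyl hydroxylases EGLN1 and EGLN3 slow, the factors HIF1A and EPAS1 are no longer degraded, and genes with their short binding motif rise, among them many glycolytic enzymes. HIF1A and EPAS1 are governed mainly at the protein level, so their RNA is not a measure of their activity.

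Total counts per library ran from 40959445 to 66818593, and 24721 to 27304 genes were detected. CPM below is the count relative to the library total after TMM scaling, and TPM is used to compare genes with each other, since it is per transcript length. ISL1 RNA was 64.7, 66.0 and 72.0 CPM in ISL1 KO BFP, against 285 and 484 CPM in WT BFP. The libraries labelled ISL1 KO ISL1 OE held 61.6, 73.1 and 84.0 CPM and those labelled WT ISL1 OE 326 and 313 CPM. PAX6 KO ISL1 OE held 151, 115.7 and 317 CPM, against 191, 123 and 213 CPM in PAX6 KO BFP. PDX1 KO ISL1 OE held 127 and 278 CPM, against 140, 157 and 123 CPM in PDX1 KO BFP. The values of 317 and 278 CPM are from the libraries left out of the smaller fit described below. With or without these, no ISL1 OE group lay wholly above its BFP group, so ISL1 RNA does not check the vector's label. PAX6 RNA was 139, 98.8 and 159 CPM in PAX6 KO BFP, against 144 and 235 CPM in WT BFP, and PDX1 RNA 93.1, 105 and 104 CPM in PDX1 KO BFP, against 74.0 and 95.04 CPM in WT BFP. The altered stretch of each gene is not stated in the labels, so counts outside it check nothing. The summed CPM of 8 pan-endocrine markers, CHGA and SYP among them, lay between 11213 and 48688 in every library, so the label of endocrine cells had its markers. CHGA alone held 9129 to 41915 CPM and was the larger part of this sum in every library.

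Both groups that hold a deviating library are ISL1 OE groups. Across genes, the log2 CPM of PAX6 KO ISL1 OE replicate 3 correlated with its group at 0.927 at the lowest, while PDX1 KO ISL1 OE replicate 4, as labelled, correlated with its partner at 0.90. All other groups had correlations of 0.982 or higher. That replicate 4 of PDX1 KO ISL1 OE also held 94730.3 CPM of GCG and 44875 CPM of INS, against 10836 and 324 CPM in its partner. In both libraries the listed genes were ordered by the length of their transcripts, as estimated from the deposited counts and TPM. Among the 33 listed genes at 10 TPM or more, split by length into equal groups, the median log2 difference of PAX6 KO ISL1 OE replicate 3 from its group was 0.77 for the shortest, −0.04 for the middle and −1.56 for the longest genes. For PDX1 KO ISL1 OE replicate 4 it was 1.91, −0.35 and −1.37. Over all 9886 genes at that level the values were 1.16, 0.04 and −1.14 for PAX6 KO ISL1 OE replicate 3, and 1.31, −0.22 and −1.42 for PDX1 KO ISL1 OE replicate 4. Short genes were thus high in these libraries and long genes low. These are called the libraries that stand apart, and their part in each result was measured by leaving both out. With all 21 libraries edgeR's common dispersion was 0.114, and with the other 19 it was 0.0344, so every comparison is given from both fits.

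**Figure D1:**
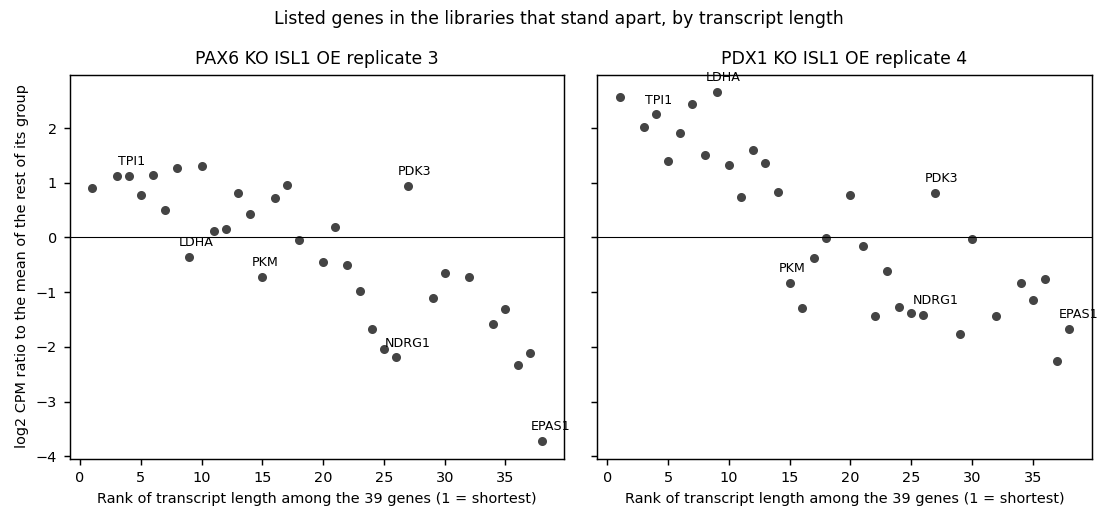
For the listed genes at 10 TPM or more, the vertical axis gives the log2 ratio of CPM in a library that stands apart to the mean CPM of the rest of its group, and the horizontal axis the gene's rank by transcript length, 1 being the shortest. Points slope downwards in both panels: TPI1 lies above 0 and EPAS1 and NDRG1 below it.

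By TPM the list spans several orders of magnitude. GAPDH had the highest median over the 21 libraries, 2728 TPM, followed by TPI1 (1098 TPM), ENO1 (977 TPM), PKM (801 TPM), ALDOA (679 TPM) and LDHB (672 TPM). LDHA, the subunit whose enzyme favours making lactate, had a median of 315 TPM and the widest range of the abundant enzymes, with 151 to 721 TPM over the 19 libraries. HIF1A (262 TPM), BNIP3 (284 TPM) and VEGFA (160 TPM) were the most abundant genes of the oxygen pathway, and EPAS1 was lower at 41.7 TPM. The glucose transporter SLC2A3 had a median of only 7.81 TPM, the lactate exporter SLC16A3 2.99 TPM, and the kinase PDK1 7.13 TPM. CA9, a carbonic anhydrase of the cell surface that is among the strongest hypoxia targets in many tumour lines, stayed at or under 0.641 TPM in the 19 libraries, and PKLR, the pyruvate kinase of liver and red cells, at or under 0.422 TPM. The 18 glycolysis genes together held 0.701% to 1.002% of all TPM, of which GAPDH made up 29.4% to 41.2%.

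Several steps of the pathway are served by isozymes. HK1 made up 69.2% to 93.0% of HK1 and HK2 TPM over all groups, so the hexokinase of most tissues outweighed the inducible form everywhere. PKM is spliced with either of 2 exons that exclude each other, chr15:72202454-72202620 (downstream, PKM2) and chr15:72203022-72203188 (upstream, PKM1), both on the minus strand in GRCh38. Transcripts with the downstream exon held 98.7% to 99.7% of the PKM counts that carry either exon, with a median of 99.3%. The PKM2 form, known from embryonic and proliferating cells, was thus nearly the whole of PKM in all 21 libraries and in all 8 groups. LDHA made up 38.0% ± 0.962 of LDHA and LDHB TPM in ISL1 KO BFP, 33.2% ± 1.87 in PAX6 KO BFP and 34.5% ± 0.523 in PDX1 KO BFP, against 56.4% ± 5.52 in WT BFP (mean ± SD). WT BFP was the only group in which LDHA exceeded LDHB, and it did so in both libraries.

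**Figure D2:**
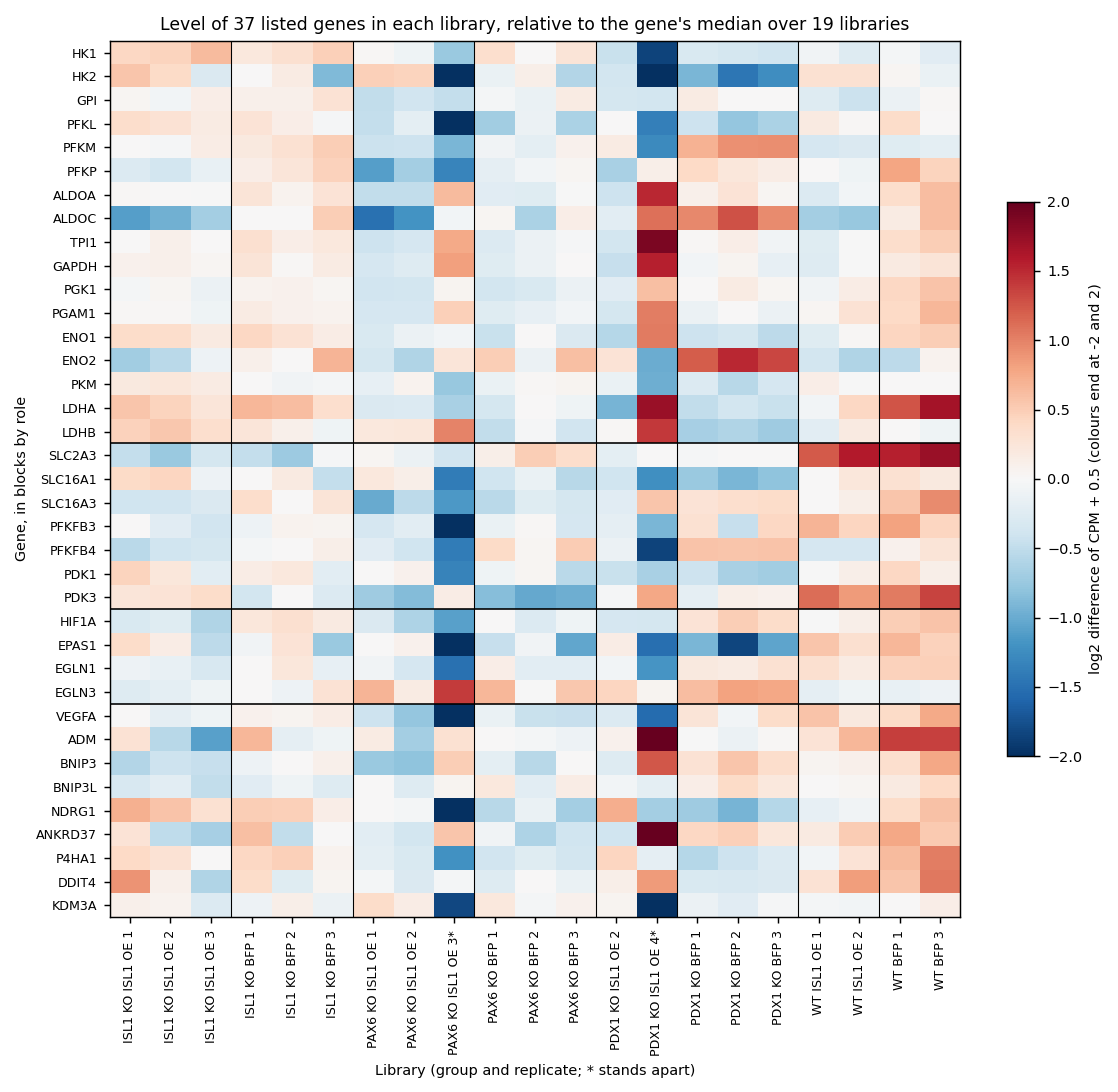
Each row is a listed gene, in blocks for glycolysis, transport and flux control, oxygen sensing and its targets from top to bottom, and each column is a library; colour gives log2 of CPM + 0.5 minus the gene's median over 19 libraries. PKLR and CA9 are left out. WT BFP is red for LDHA, SLC2A3 and PDK3, and the columns marked * carry the length pattern.

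Knockout and WT were compared first among BFP libraries, which asks how the loss of each factor changed the cells that received the control vector. The 3 comparisons share the WT BFP libraries, of which there are 2, so their results are given side by side and are not independent of each other. With all 21 libraries, 2 of the 39 genes were lower in ISL1 KO than in WT and 0 higher, 5.13% of the list called, beside 6.53% of all genes tested. In PAX6 KO 6 were lower and 0 higher, 15.4% beside 6.65%. In PDX1 KO 5 were lower and 2 higher, 17.9% beside 11.4%. With the 19 libraries, which drop no library of these groups, 13 were lower and 2 higher in ISL1 KO (28.5% of all genes called), 24 lower and 2 higher in PAX6 KO (28.8%), and 21 lower and 5 higher in PDX1 KO (33.3%). By direction, 4.48%, 4.25% and 6.84% of all genes were lower in the 21 libraries, and 15.1%, 14.9% and 17.5% in the 19. The share called in ISL1 KO with all libraries is close to that of all genes and is no result about the list. The median log2 fold change of the listed genes was −0.32 for ISL1 KO, −0.65 for PAX6 KO and −0.39 for PDX1 KO, while the medians of all genes were 0.03, 0.00 and 0.02. Scaling by total counts in place of TMM raised the medians of all genes by 0.18, 0.23 and 0.11, and the listed medians were then −0.15, −0.42 and −0.28. With limma on TPM the listed medians were −0.05, −0.24 and −0.12, beside 0.17, 0.22 and 0.15 over all genes. Fold changes of single genes below are on the TMM scale, so their size depends on this scaling as well. The summed share of TPM held by the 18 glycolysis genes was 0.973% ± 0.0226 for ISL1 KO, 0.841% ± 0.0614 for PAX6 KO and 0.786% ± 0.0150 for PDX1 KO, against 0.901% ± 0.0201 for WT (mean ± SD), so ISL1 KO lay above WT in this sum.

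SLC2A3 and PDK3 were the listed genes called in all 3 comparisons with all libraries. SLC2A3 encodes GLUT3, a high-affinity glucose transporter (ENSG00000059804, GRCh38 chr12:7919230-7936275, minus strand). It had 11.9, 9.98 and 16.6 CPM in ISL1 KO, 18.2, 23.98 and 21.7 CPM in PAX6 KO and 16.6, 16.8 and 16.9 CPM in PDX1 KO, against 50.3 and 56.8 CPM in WT. All 9 knockout libraries lay below both WT libraries. The log2 fold changes were −2.06 ± 0.22 in ISL1 KO (adjusted p = 3.5e-05), −1.33 ± 0.22 in PAX6 KO (adjusted p = 0.0022) and −1.67 ± 0.22 in PDX1 KO (adjusted p = 0.000314), ± SE. SLC2A3 kept its call in all 3 comparisons when any library of the groups compared was left out, with an adjusted p of at most 0.00107, 0.0450 and 0.00691.

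PDK3 encodes a pyruvate dehydrogenase kinase, which switches that enzyme off (ENSG00000067992, chrX:24465221-24541862, plus strand). It had 69.1, 88.9 and 73.1 CPM in ISL1 KO, 48.9, 43.3 and 44.9 CPM in PAX6 KO and 78.7, 96.9 and 94.4 CPM in PDX1 KO, against 182 and 227 CPM in WT. PAX6 KO was lowest, and no knockout library reached WT. The log2 fold changes were −1.41 ± 0.27 (adjusted p = 0.00511), −2.16 ± 0.28 (adjusted p = 0.00025) and −1.18 ± 0.27 (adjusted p = 0.00988) in ISL1 KO, PAX6 KO and PDX1 KO. The call held in every leave-one-out fit in PAX6 KO, in 4 of 5 in ISL1 KO, where the highest adjusted p was 0.0862, and in 3 of 5 in PDX1 KO, where it was 0.125.

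LDHA (ENSG00000134333, chr11:18394388-18408425, plus strand) had 395, 382 and 311 CPM in ISL1 KO, 194, 248 and 234 CPM in PAX6 KO and 177, 191 and 182 CPM in PDX1 KO, against 596 and 788 CPM in WT. The groups did not overlap with WT, and PDX1 KO lay lowest. LDHA fell in PAX6 KO (−1.62 ± 0.44, adjusted p = 0.0339) and in PDX1 KO (−1.92 ± 0.44, adjusted p = 0.00906), while its log2 fold change of −0.93 ± 0.44 in ISL1 KO did not pass with all libraries (adjusted p = 0.236) and passed with the 19 (adjusted p = 0.000227). With all libraries the call in PAX6 KO was lost whichever of its 5 libraries was left out, with an adjusted p of up to 0.256, and with the replicate number as a block (adjusted p = 0.0707), and the call in PDX1 KO was lost in 1 of 5 fits, with 0.0889.

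**Figure D3:**
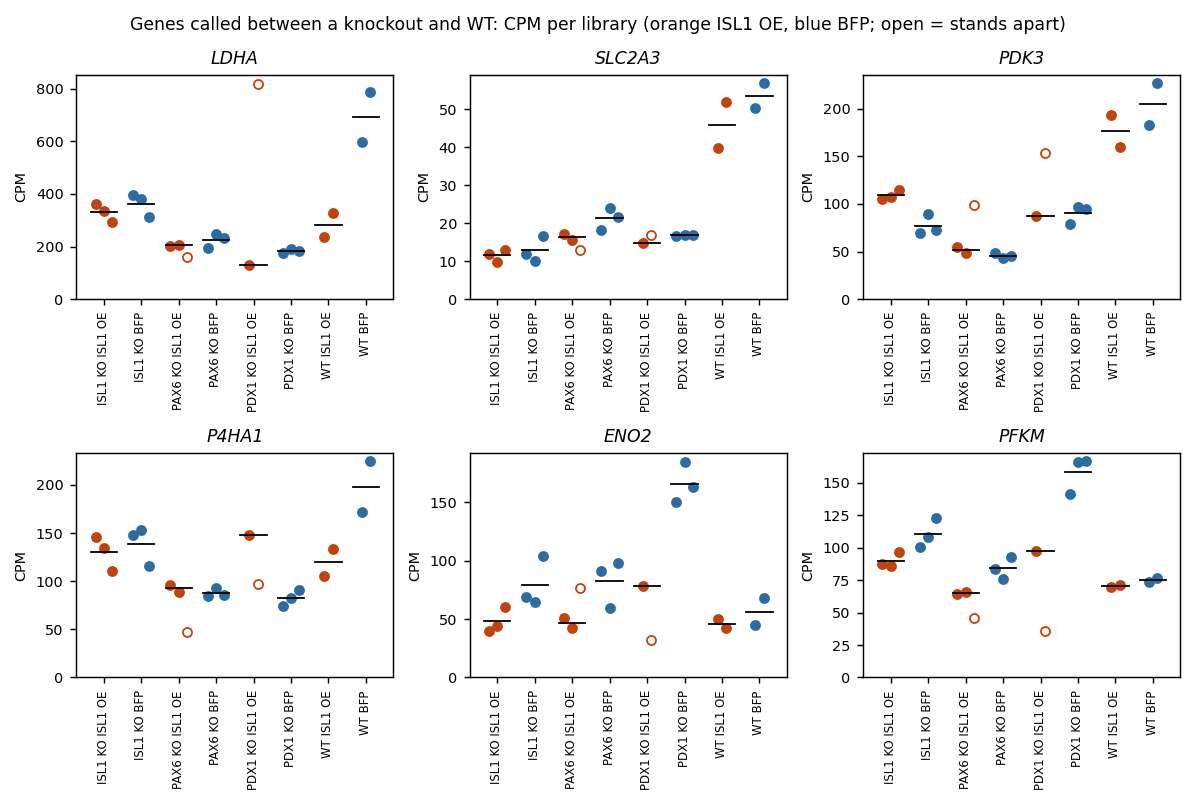
CPM per library for LDHA, SLC2A3, PDK3, P4HA1, ENO2 and PFKM, by group on the horizontal axis; orange points are ISL1 OE libraries, blue points BFP libraries, open points the libraries that stand apart, and bars the group means without them. SLC2A3 and PDK3 are high in WT under both vectors, by these means LDHA and P4HA1 are highest in WT BFP, and ENO2 and PFKM are highest in PDX1 KO BFP.

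Among the other enzymes PGK1, which makes the first ATP of the pathway, had 417, 423 and 408 CPM in ISL1 KO, 308, 321 and 364 CPM in PAX6 KO and 396, 444 and 407 CPM in PDX1 KO, against 528 and 588 CPM in WT. It fell in PAX6 KO (−0.76 ± 0.21, adjusted p = 0.0419), a call that was lost with any library of the comparison left out (adjusted p up to 0.325) and with the replicate block (adjusted p = 0.0538). In the fit of 19 libraries PGK1 and PGAM1 passed in all 3 knockouts, PGAM1 with log2 fold changes of −0.44 ± 0.10, −0.68 ± 0.10 and −0.64 ± 0.10. In the same fit 9 of the 18 glycolysis genes were lower and 1 higher in PAX6 KO, and 12 lower and 3 higher in PDX1 KO, while in ISL1 KO 3 were lower and 2 higher. Beside these stand 14.9%, 17.5% and 15.1% of all genes lower in PAX6 KO, PDX1 KO and ISL1 KO, so 3 of 18 in ISL1 KO is near the share of all genes. ENO1 and PFKL, the enolase of most tissues and the liver-type phosphofructokinase, were lower in PAX6 KO (−0.68 ± 0.12 and −0.65 ± 0.16) and in PDX1 KO (−0.91 ± 0.12 and −0.83 ± 0.16). HK1 went the other way and was higher in ISL1 KO (0.47 ± 0.12, adjusted p = 0.00938) and in PAX6 KO (0.35 ± 0.12, adjusted p = 0.0421).

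PDX1 KO also had 2 glycolysis genes higher with all libraries. ENO2, the enolase of neurons and endocrine cells, had 150.0, 185 and 163 CPM in PDX1 KO, against 45.0 and 67.6 CPM in WT (1.56 ± 0.38, adjusted p = 0.0125). PFKM, the muscle-type phosphofructokinase that is also the main form of rodent beta cells, had 141, 166 and 166.65 CPM in PDX1 KO, against 73.5 and 76.7 CPM in WT (1.07 ± 0.30, adjusted p = 0.0263). Neither gene overlapped between these groups. The call of ENO2 held in 4 of 5 leave-one-out fits (adjusted p up to 0.178) and that of PFKM in 1 of 5 (up to 0.171). In TPM, PFKM made up 46.6% ± 5.21 of PFKM and PFKL in PDX1 KO BFP, against 19.3% ± 2.83 in WT BFP, and ENO1 made up 85.5% ± 1.25 of ENO1 and ENO2, against 97.0% ± 0.775 in WT BFP. The summed CPM of the pan-endocrine markers moved with these genes, at 45114 to 48688 in PDX1 KO BFP, against 21463 to 26332 in WT BFP. CHGA alone held 38740 to 41915 CPM in PDX1 KO BFP and 17524 to 21337 CPM in WT BFP, so the sum mostly shows CHGA. In bulk RNA, more cells of a type and more RNA per cell cannot be told apart. Counts were made without strand, and PFKM shares its locus with SENP1 on the opposite strand, whose counts come to 27.9% of those of PFKM, while ENO2 overlaps LRRC23 on the same strand at 11.2%.

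Of the transport and control genes, SLC16A3, a monocarboxylate transporter that exports lactate, had 2.95, 3.73 and 3.43 CPM in PAX6 KO, against 6.87 and 9.17 CPM in WT (−1.25 ± 0.27, adjusted p = 0.0103). The groups did not overlap, but the level is low and CSNK1D, on the opposite strand of the same locus, has far more counts, so this value is uncertain. The call held in 3 of 5 leave-one-out fits (adjusted p up to 0.169). PFKFB3, which makes the activator of phosphofructokinase, was lower in the 19 libraries in ISL1 KO (−0.64 ± 0.20) and in PAX6 KO (−0.78 ± 0.20), and SLC16A1, the housekeeping monocarboxylate transporter, in PAX6 KO (−0.59 ± 0.18) and in PDX1 KO (−1.10 ± 0.18). PDK1, a kinase of the same family as PDK3, was lower in PDX1 KO (−0.91 ± 0.20). PFKFB4, which like PFKFB3 sets the level of that activator, was the one gene of this role that was higher, in PDX1 KO (0.37 ± 0.12, adjusted p = 0.0319), with 75.8, 74.9 and 75.9 CPM in PDX1 KO, against 54.4 and 61.2 CPM in WT.

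Genes of the oxygen-sensing pathway passed in the smaller fit. HIF1A was lower in PAX6 KO with the 19 libraries (−0.64 ± 0.12, adjusted p = 0.00103), with 537, 445 and 506 CPM against 759 and 795 CPM in WT. EPAS1, the HIF2-alpha gene, had 85.6, 112.99 and 57.4 CPM in PAX6 KO and 62.5, 32.7 and 56.6 CPM in PDX1 KO, against 188 and 163 CPM in WT. It was lower in both (−1.03 ± 0.31 and −1.82 ± 0.32, adjusted p = 0.0213 and 0.000333). Over all libraries the adjusted p was 0.0637 for HIF1A in PAX6 KO, and 0.44 and 0.104 for EPAS1. EPAS1 is a defining gene of endothelium as well, and the summed CPM of 7 endothelial markers was 75.3 to 92.3 in the knockout BFP libraries, against 137 to 138 in WT BFP. Of these 7 markers 3 to 4 were under 1 CPM in every library of a BFP group. Their part in the result was not tested. EGLN3, the oxygen sensor that is itself induced in hypoxia, was higher in PAX6 KO (0.58 ± 0.20) and in PDX1 KO (0.86 ± 0.20), but its annotated span also holds SPTSSA on the same strand with more counts, so its value is uncertain.

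Of the 10 known targets, P4HA1 and DDIT4 passed with all libraries. P4HA1, the catalytic subunit of the prolyl hydroxylase that matures collagen (ENSG00000122884, chr10:73007217-73096974, minus strand), had 84.3, 92.8 and 85.8 CPM in PAX6 KO and 74.3, 82.7 and 90.8 CPM in PDX1 KO, against 172 and 225 CPM in WT. The log2 fold changes were −1.18 ± 0.27 in PAX6 KO (adjusted p = 0.0149) and −1.26 ± 0.27 in PDX1 KO (adjusted p = 0.00568). The call held in 1 of 5 leave-one-out fits in PAX6 KO (adjusted p up to 0.176) and in 4 of 5 in PDX1 KO (up to 0.0755). DDIT4, an inhibitor of mTOR signalling that stress induces, had 69.7, 69.0 and 70.2 CPM in PDX1 KO, against 126.37 and 179 CPM in WT (−1.13 ± 0.33, adjusted p = 0.0355). Its call was lost with any library left out (up to 0.298), and its WT libraries lie far from each other.

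In the smaller fit 5 of the 10 targets were lower for ISL1 KO, 7 for PAX6 KO and 4 for PDX1 KO, and 0 were higher, beside 15.1%, 14.9% and 17.5% of all genes lower. ADM, the vasodilator peptide adrenomedullin, was lower in all 3, with 169, 93.3 and 100.4 CPM in ISL1 KO, 106, 104 and 99.0 CPM in PAX6 KO and 106, 98.3 and 108 CPM in PDX1 KO, against 277 and 274 CPM in WT. Its log2 fold changes were −1.20 ± 0.31, −1.41 ± 0.31 and −1.43 ± 0.31. VEGFA and BNIP3, an angiogenic ligand and a mitophagy receptor, were lower in ISL1 KO (−0.49 ± 0.16 and −0.57 ± 0.15) and PAX6 KO (−0.90 ± 0.16 and −0.79 ± 0.15). In TPM, VEGFA was 176 ± 7.36 in ISL1 KO and 143 ± 17.4 in PAX6 KO, against 187 ± 24.3 in WT (mean ± SD). BNIP3 was 299 ± 27.6 and 271 ± 38.9 TPM, against 362 ± 63.9 TPM. NDRG1, a differentiation-related gene that hypoxia induces, was lower in PAX6 KO (−0.91 ± 0.16) and PDX1 KO (−1.23 ± 0.16). KDM3A, a histone demethylase and known target, was not called in any of the 3, with log2 fold changes between −0.21 ± 0.12 in PDX1 KO and 0.04 ± 0.12 in PAX6 KO.

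Summed markers of other cells, and of islet hormones, moved with the same groups. The summed CPM of 7 liver markers, ALB and AFP among them, was 3375 to 4984 in the knockout BFP libraries, against 11239 to 12021 in WT BFP. The same sum was 24085 CPM in PDX1 KO ISL1 OE replicate 4, the library with 94730.3 CPM of GCG, and 5529 CPM in its partner. Whether this sum measures liver cells alone was not tested. The summed CPM of 5 islet hormone genes was 3454 to 18293 in the knockout BFP libraries, against 47366 to 58885 in WT BFP. GCG held 33913 and 48218 CPM in WT BFP and INS 13286 and 10442.5 CPM, nearly the whole of that sum. In PAX6 KO BFP the sum was 4119 to 5294 CPM, with INS at most 1818 CPM and GCG at most 72.1 CPM. Hormone genes other than INS and GCG thus made up the larger part there. The sum therefore does not give the direction of each hormone gene. No liver marker was under 1 CPM throughout a group, and the 5 erythroid markers all were. The 5 duct and progenitor markers summed to 563 to 657 CPM in PDX1 KO BFP, 1289 to 1575 CPM in PAX6 KO BFP and 1078 to 1195 CPM in ISL1 KO BFP, against 1269 to 1306 CPM in WT BFP. The 6 proliferation markers summed to 134 to 168 CPM in PDX1 KO BFP, 198 to 414 CPM in PAX6 KO BFP and 377 to 537 CPM in ISL1 KO BFP, against 235 to 349.8 CPM in WT BFP. The part of these cells in the changes was not tested.

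Start-site sequences are shown for LDHA, PDK3 and P4HA1, which fell in at least 2 of these comparisons, and for ALDOC and BNIP3, which are described below for the vectors. They are RefSeq promoters in GRCh38.p14 coordinates, 250 bases before to 50 after the start, printed 5′ to 3′ on the gene's strand. Capitals mark ACGTG and GCGTG, the core letters of the hypoxia response element, on either strand, so that CACGT and CACGC are the same motifs read from the other strand and CACGTG counts as 2 matches of ACGTG. LDHA lies at chr11:18394313-18394612 on the plus strand and is the upstream of 2 starts listed, PDK3 at chrX:24465036-24465335 on the plus strand, P4HA1 at chr10:73096817-73097116, ALDOC at chr17:28576846-28577145 and BNIP3 at chr10:131981874-131982173, these 3 on the minus strand.
LDHA: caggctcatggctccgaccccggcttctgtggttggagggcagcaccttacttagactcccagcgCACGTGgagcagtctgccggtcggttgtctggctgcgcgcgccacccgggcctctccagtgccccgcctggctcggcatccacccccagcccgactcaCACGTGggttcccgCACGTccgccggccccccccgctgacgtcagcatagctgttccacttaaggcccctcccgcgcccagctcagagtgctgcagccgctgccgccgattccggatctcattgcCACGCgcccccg
PDK3: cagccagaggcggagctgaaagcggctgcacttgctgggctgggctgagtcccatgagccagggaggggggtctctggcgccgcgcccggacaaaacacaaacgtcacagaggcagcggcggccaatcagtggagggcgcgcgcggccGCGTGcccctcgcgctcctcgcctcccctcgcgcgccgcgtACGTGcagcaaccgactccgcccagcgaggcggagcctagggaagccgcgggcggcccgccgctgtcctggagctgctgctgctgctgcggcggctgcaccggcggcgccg
P4HA1: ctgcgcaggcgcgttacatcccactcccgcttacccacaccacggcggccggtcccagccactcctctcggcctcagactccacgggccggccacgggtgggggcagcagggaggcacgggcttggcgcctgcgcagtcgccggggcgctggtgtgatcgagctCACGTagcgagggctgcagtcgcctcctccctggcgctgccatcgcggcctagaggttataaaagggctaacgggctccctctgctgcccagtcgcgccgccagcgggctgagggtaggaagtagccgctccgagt
ALDOC: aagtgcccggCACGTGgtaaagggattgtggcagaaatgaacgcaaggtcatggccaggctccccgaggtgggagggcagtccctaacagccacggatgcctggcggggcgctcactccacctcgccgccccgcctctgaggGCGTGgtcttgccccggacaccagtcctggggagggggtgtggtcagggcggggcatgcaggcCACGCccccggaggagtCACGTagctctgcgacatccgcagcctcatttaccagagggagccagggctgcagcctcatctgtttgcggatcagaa
BNIP3: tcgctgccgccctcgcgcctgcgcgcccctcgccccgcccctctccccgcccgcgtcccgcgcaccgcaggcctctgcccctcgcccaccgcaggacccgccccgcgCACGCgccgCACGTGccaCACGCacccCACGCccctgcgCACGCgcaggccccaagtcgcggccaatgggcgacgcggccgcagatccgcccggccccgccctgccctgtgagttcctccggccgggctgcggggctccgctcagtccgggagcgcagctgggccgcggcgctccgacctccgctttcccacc

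LDHA held 5 matches of ACGTG and 1 of GCGTG, PDK3 1 and 1, P4HA1 1 and 0, ALDOC 3 and 2, and BNIP3 2 and 4. The promoter table had 63 promoters for 34 of the 39 genes. SLC2A3, SLC16A1, VEGFA, BNIP3L and NDRG1 were not matched. ACGTG on either strand stood in 41.3% of these 63 promoters, beside 21.4% of all 35116 promoters of the same length, GCGTG in 41.3%, beside 36.5%, and either motif in 68.3%, beside 48.4%. A match is a run of letters and says nothing of binding.

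The same knockouts were then compared with WT among the ISL1 OE libraries, a comparison added after the data were seen. These libraries are all different from the BFP libraries. Among all genes and all 21 libraries, 1 gene of the list was lower in ISL1 KO (4.13% of all genes called), 4 in PAX6 KO (4.26%) and 1 in PDX1 KO (0.78%), and 0 were higher. With the replicate block 6 were lower and 1 higher in PAX6 KO, a count without a share of all genes beside it. SLC2A3 was called in all 3. It had 11.997, 9.89 and 13.1 CPM in ISL1 KO, 17.2, 15.5 and 12.8 CPM in PAX6 KO and 14.7 and 16.9 CPM in PDX1 KO, against 39.9 and 51.8 CPM in WT. Its log2 fold changes were −1.98 ± 0.22 (adjusted p = 0.000115), −1.59 ± 0.22 (adjusted p = 0.000627) and −1.54 ± 0.25 (adjusted p = 0.0124) in ISL1 KO, PAX6 KO and PDX1 KO, and no knockout library reached WT. In PDX1 KO the call was lost in 2 of 4 leave-one-out fits (adjusted p up to 0.151). The libraries that stand apart lay at 12.8 CPM in PAX6 KO and 16.9 CPM in PDX1 KO, beside their group mates.

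PDK3 had 105, 107 and 114.66 CPM in ISL1 KO, 54.4, 48.3 and 98.7 CPM in PAX6 KO and 87.0 and 153 CPM in PDX1 KO, against 193 and 160.1 CPM in WT. The last value of PAX6 KO and of PDX1 KO is from the library that stands apart. In all 21 libraries PDK3 passed in PAX6 KO (−1.39 ± 0.27, adjusted p = 0.0076). With the 19 it passed in all 3, at −0.70 ± 0.13, −1.77 ± 0.15 and −1.03 ± 0.19 in ISL1 KO, PAX6 KO and PDX1 KO. PFKP, the platelet-type phosphofructokinase, and SLC16A3 were the other genes lower in PAX6 KO with all libraries (−0.98 ± 0.23 and −1.07 ± 0.27). In PAX6 KO the call of SLC2A3 held in 5 of 5 leave-one-out fits, that of PDK3 in 3 (adjusted p up to 0.101) and those of PFKP and SLC16A3 in 1 (up to 0.170 and 0.252).

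LDHA had 363, 337 and 295 CPM in ISL1 KO ISL1 OE and 204, 204 and 159 CPM in PAX6 KO ISL1 OE, against 238 and 329 CPM in WT ISL1 OE. Without the libraries that stand apart its log2 fold change was 0.22 ± 0.15 in ISL1 KO (adjusted p = 0.315) and −0.46 ± 0.17 in PAX6 KO (adjusted p = 0.0769), and the WT libraries under ISL1 OE held less LDHA than those under BFP. In PDX1 KO the library that stands apart held 819 CPM of LDHA and its partner 129.6 CPM, so the log2 fold change was 0.74 ± 0.49 with it and −1.13 ± 0.21 without it (adjusted p = 0.0032, n = 1 in PDX1 KO).

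Leaving these out, 7 genes were lower and 6 higher in ISL1 KO ISL1 OE (23.7% of all genes called), 10 lower and 0 higher in PAX6 KO ISL1 OE (14.5%), and 4 lower and 1 higher in PDX1 KO ISL1 OE (7.9%). In ISL1 KO 6 genes were lower under both vectors, which is 85.7% of the 7 under ISL1 OE and 46.2% of the 13 under BFP. They were SLC2A3, PFKFB3, PDK3, EGLN1, VEGFA and BNIP3. In PAX6 KO the shared genes were 10, which is 100% of the 10 under ISL1 OE and 41.7% of the 24 under BFP, and in PDX1 KO 4, which is 100% of 4 and 19.05% of 21. Over all genes called lower, the shared genes were 71.1% of those under ISL1 OE and 61.6% of those under BFP in ISL1 KO, 76.1% and 46.8% in PAX6 KO, and 82.9% and 17.4% in PDX1 KO, so the listed genes were near these shares or rest on few genes. In the 21 libraries 1, 3 and 1 listed genes were lower under both vectors for the same 3 knockouts. HK1 and PFKM were higher in ISL1 KO under both vectors, HK1 by 0.66 ± 0.12 under ISL1 OE and 0.47 ± 0.12 under BFP. NDRG1 changed side in PDX1 KO: it was higher under ISL1 OE (0.84 ± 0.21, adjusted p = 0.0186, n = 1 in PDX1 KO), where the library kept held 361 CPM and the library that stands apart 136 CPM, and lower under BFP (−1.23 ± 0.16).

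**Figure D4:**
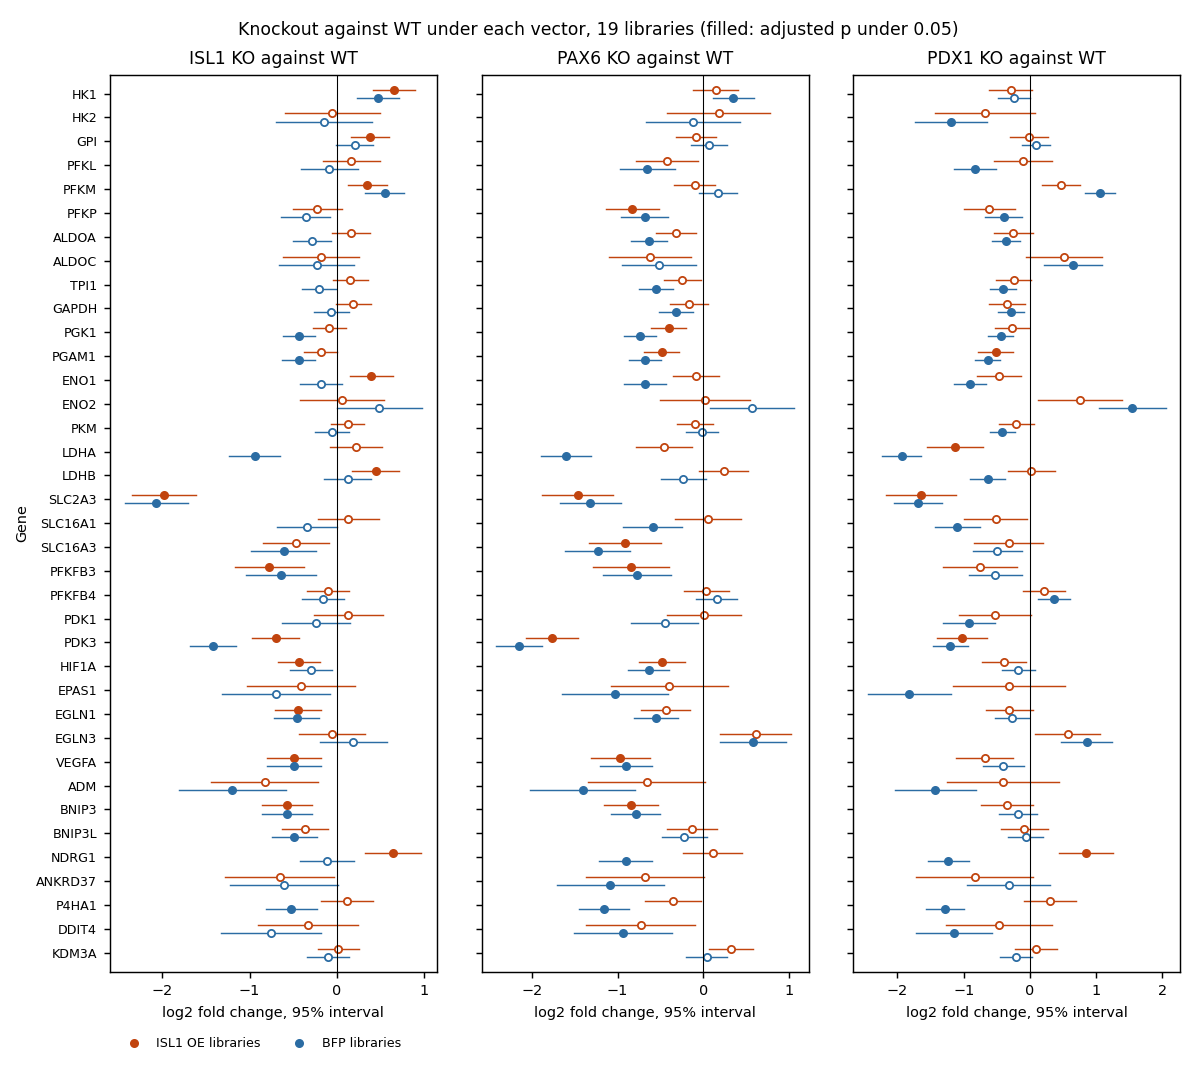
Log2 fold change of each gene but PKLR and CA9 between knockout and WT, from the 19 libraries, with bars for the 95% confidence interval; orange is the comparison among ISL1 OE libraries and blue that among BFP libraries, and filled points passed an adjusted p under 0.05. SLC2A3 and PDK3 lie left of 0 in both colours in all 3 panels, and LDHA and P4HA1 lie further left in blue than in orange.

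Lists of other genes of the same pathways give the setting. Of 43 other genes of glucose metabolism 42 were tested with all libraries, and 8 were lower in ISL1 KO BFP and 0 higher, 10 and 1 in PAX6 KO BFP, and 10 and 2 in PDX1 KO BFP. The 43 genes gave, with the 19 libraries, 17 lower and 2 higher, 20 and 3, and 18 and 5. PCK2, the mitochondrial enzyme that makes phosphoenolpyruvate, was lower in all 3 (−1.63 ± 0.27, −1.61 ± 0.27 and −1.36 ± 0.27). PDK4, a further kinase of pyruvate dehydrogenase, was lower in ISL1 KO (−2.50 ± 0.26) and in PAX6 KO (−1.70 ± 0.26). SLC2A2, which encodes GLUT2, was lower in PDX1 KO (−3.40 ± 0.51). Of 52 other hypoxia genes 4 were lower and 1 higher in ISL1 KO BFP, 6 and 0 in PAX6 KO BFP, and 12 and 0 in PDX1 KO BFP. The 52 genes gave 17 lower and 7 higher, 23 and 4, and 20 and 5 in the smaller fit. Of all genes 6.53%, 6.65% and 11.4% were called in the 21 libraries and 28.5%, 28.8% and 33.3% in the 19, and the other hypoxia genes in ISL1 KO and PAX6 KO are not far above these shares with all libraries. PLOD2, a collagen lysyl hydroxylase, was lower in all 3 (−1.47 ± 0.27, −1.63 ± 0.27 and −1.91 ± 0.27), and LOX, which crosslinks collagen, in ISL1 KO (−1.51 ± 0.30) and PDX1 KO (−2.23 ± 0.30). Collagen genes mark mesenchyme as well, whose 8 markers summed to 99.97 to 856 CPM in the knockout BFP libraries, against 207 and 1151 CPM in WT BFP.

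The knockouts were also compared with each other under BFP, which leaves WT out. With all 21 libraries 0 of the 39 genes passed between ISL1 KO and PAX6 KO (2.78% of all genes called, 4 of the 39 at an unadjusted p under 0.05) and 0 between ISL1 KO and PDX1 KO (5.71%, 12 at an unadjusted p under 0.05). DESeq2 called 1 and 3, and limma on TPM 0 and 3, counts without a share of all genes beside them. Between PAX6 KO and PDX1 KO 1 gene passed (3.62% of all genes called), PDK3, at −0.98 ± 0.25 (adjusted p = 0.0383), which was lost with any library left out (adjusted p up to 0.193) and with the replicate block (adjusted p = 0.0537). With the 19 libraries ISL1 KO lay above PAX6 KO for 11 genes and below it for 1 (10.7% of all genes called), and above PDX1 KO for 12 and below it for 7 (26.1%), while PAX6 KO lay above PDX1 KO for 5 and below it for 9 (20.1%).

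In the fit of 19 libraries several isozymes differed between PDX1 KO and both other knockouts, none of which passed with all 21. ENO2 was lower in ISL1 KO and PAX6 KO than in PDX1 KO (−1.05 ± 0.22 and −0.97 ± 0.22), as were PFKM (−0.50 ± 0.10 and −0.88 ± 0.10) and ALDOC, the aldolase of brain and endocrine tissue (−0.88 ± 0.20 and −1.17 ± 0.20). HK1 was higher in ISL1 KO and PAX6 KO than in PDX1 KO (0.71 ± 0.11 and 0.59 ± 0.11), as were HK2 (1.05 ± 0.26 and 1.07 ± 0.26) and LDHB (0.76 ± 0.12 and 0.40 ± 0.12). ALDOC had 49.3, 49.1 and 69.6 CPM in ISL1 KO and 50.4, 31.5 and 54.0 CPM in PAX6 KO, against 95.9, 120.1 and 95.2 CPM in PDX1 KO, and did not overlap between PDX1 KO and the others. The 8 pan-endocrine markers summed to 24885 to 34019.9 CPM in ISL1 KO and 16286 to 27031 CPM in PAX6 KO, against 45114 to 48688 CPM in PDX1 KO. CHGA was the larger part of each sum. The sum went in the same direction as ENO2, PFKM and ALDOC, and the part of these markers was not tested. PDK1 was higher in ISL1 KO than in PDX1 KO (0.68 ± 0.18, adjusted p = 0.0116). SLC2A3 was lower in ISL1 KO than in PAX6 KO (−0.75 ± 0.17, adjusted p = 0.0081), and LDHA and P4HA1 were higher in ISL1 KO than in PAX6 KO (0.67 ± 0.14 and 0.65 ± 0.14).

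The vectors were compared within each genotype, ISL1 OE over BFP, so that each comparison has controls of its own. In every genotype ISL1 RNA overlapped between the vectors, with or without the libraries that stand apart. Replicate numbers match between the vectors in ISL1 KO and PAX6 KO only. WT has replicates 1 and 3 under BFP and 1 and 2 under ISL1 OE. PDX1 KO has replicates 1, 2 and 3 under BFP and 2 and 4 under ISL1 OE. These comparisons are thus not matched by replicate. With all 21 libraries 0 of the 39 genes passed in ISL1 KO (0.424% of all genes called, 5 of the 39 at an unadjusted p under 0.05), 0 in PAX6 KO (0.415%, 8 at an unadjusted p under 0.05) and 0 in WT (0.0361%, 6 at an unadjusted p under 0.05). DESeq2 called 1, 2 and 0 in these, and limma on TPM 0 in each, again without a share of all genes. In PDX1 KO 3 were higher and 4 lower (14.4% of all genes called), with LDHB, LDHA and ADM higher and ENO2, PFKM, PFKFB4 and HIF1A lower. ADM had 112.51 and 611 CPM in PDX1 KO ISL1 OE, against 106, 98.3 and 108 CPM in PDX1 KO BFP, and the high value is that of the library that stands apart, as for LDHA. The calls of LDHB, ENO2 and PFKM held in 4 of 5 leave-one-out fits (adjusted p up to 0.193) and the other 4 in 1 of 5 (up to 0.933). With the 19 libraries 6 were lower and 1 higher in ISL1 KO (5.92%), 5 lower and 1 higher in PAX6 KO (6.02%), 8 lower and 4 higher in PDX1 KO (11.2%), and 7 lower and 0 higher in WT (1.69%). PDX1 KO then had 1 ISL1 OE library, which is assumed to vary like the other groups.

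ALDOC and PFKP were lower under ISL1 OE in all 4 genotypes in that fit. ALDOC (ENSG00000109107, chr17:28573115-28577264, minus strand) had 22.7, 25.1 and 30.6 CPM in ISL1 KO ISL1 OE, against 49.3, 49.1 and 69.6 CPM in ISL1 KO BFP. In PAX6 KO it had 17.1, 21.1 and 47.1 CPM under ISL1 OE, against 50.4, 31.5 and 54.0 CPM under BFP. In PDX1 KO it had 42.4 and 106 CPM under ISL1 OE, against 95.9, 120.1 and 95.2 CPM under BFP, and in WT 30.4 and 28.8 CPM under ISL1 OE, against 55.4 and 75.2 CPM under BFP. Without the 2 libraries that stand apart, which hold the highest ISL1 OE values, the groups did not overlap in any genotype. The log2 fold changes with the 19 libraries were −1.09 ± 0.20 in ISL1 KO, −1.24 ± 0.23 in PAX6 KO, −1.27 ± 0.30 in PDX1 KO and −1.13 ± 0.25 in WT, with adjusted p = 0.00368, 0.00703, 0.012 and 0.0253. The sum of the pan-endocrine markers, most of it CHGA, moved with the vector as well. Their summed CPM was 14139 to 20795 in ISL1 KO ISL1 OE, against 24885 to 34019.9 in ISL1 KO BFP. In PDX1 KO it was 24899.6 to 25969 under ISL1 OE, against 45114 to 48688 under BFP, and in WT 17118 to 20153 under ISL1 OE, against 21463 to 26332 under BFP. In PAX6 KO it was 11213 to 26458 under ISL1 OE, or 11213 to 11312 without the library that stands apart, against 16286 to 27031 under BFP. Their part in the lower ALDOC, and in the lower ENO2 described below, was not tested.

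PFKP (ENSG00000067057, chr10:3066333-3137712, plus strand) had 49.2, 46.1 and 53.7 CPM in ISL1 KO ISL1 OE, against 65.0, 70.5 and 82.3 CPM in ISL1 KO BFP. In PAX6 KO it had 27.5, 37.1 and 23.5 CPM under ISL1 OE, against 52.6, 57.3 and 61.3 CPM under BFP, and in WT 59.5 and 56.3 CPM under ISL1 OE, against 103 and 81.5 CPM under BFP. In PDX1 KO it had 37.9 and 64.6 CPM under ISL1 OE, the second from the library that stands apart, against 78.2, 69.3 and 65.8 CPM under BFP. The groups did not overlap in any of the 4 genotypes, with or without the libraries that stand apart. In PDX1 KO the groups nearly met with that library and left a single ISL1 OE library without it. Its log2 fold changes with the 19 libraries were −0.53 ± 0.13, −0.81 ± 0.15, −0.88 ± 0.19 and −0.67 ± 0.16 in ISL1 KO, PAX6 KO, PDX1 KO and WT.

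PFKFB4, a bifunctional enzyme that sets the level of the phosphofructokinase activator, was lower in ISL1 KO (−0.46 ± 0.11), PAX6 KO (−0.62 ± 0.13) and PDX1 KO (−0.66 ± 0.16), and had a log2 fold change of −0.51 ± 0.14 in WT that did not pass (adjusted p = 0.0791). BNIP3 was lower in the same 3 genotypes (−0.48 ± 0.13, −0.53 ± 0.15 and −0.64 ± 0.19), with −0.48 ± 0.16 in WT (adjusted p = 0.199). BNIP3 has 39 named pseudogenes in the annotation, none of them in the deposited table, so reads shared with them cannot be traced. The same limit holds for 16 of the listed genes in all, among them GAPDH (62), PGAM1 (13), LDHA (6) and SLC2A3 (3). HIF1A had 433, 455 and 355 CPM in ISL1 KO ISL1 OE, against 626, 673 and 609.7 CPM in ISL1 KO BFP, and fell there (−0.61 ± 0.11, adjusted p = 0.00372) and in PDX1 KO (−0.69 ± 0.16). In PAX6 KO and WT its log2 fold changes were −0.32 ± 0.13 and −0.47 ± 0.14 (adjusted p = 0.146 and 0.119), and its groups did not overlap in any of the 4 genotypes. LDHB, the subunit whose enzyme favours turning lactate back into pyruvate, was higher in PAX6 KO (0.52 ± 0.13) and PDX1 KO (0.70 ± 0.16). In PDX1 KO EPAS1 (1.40 ± 0.38), NDRG1 (1.48 ± 0.19) and P4HA1 (0.87 ± 0.18) were higher as well, with n = 1 under ISL1 OE.

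**Figure D5:**
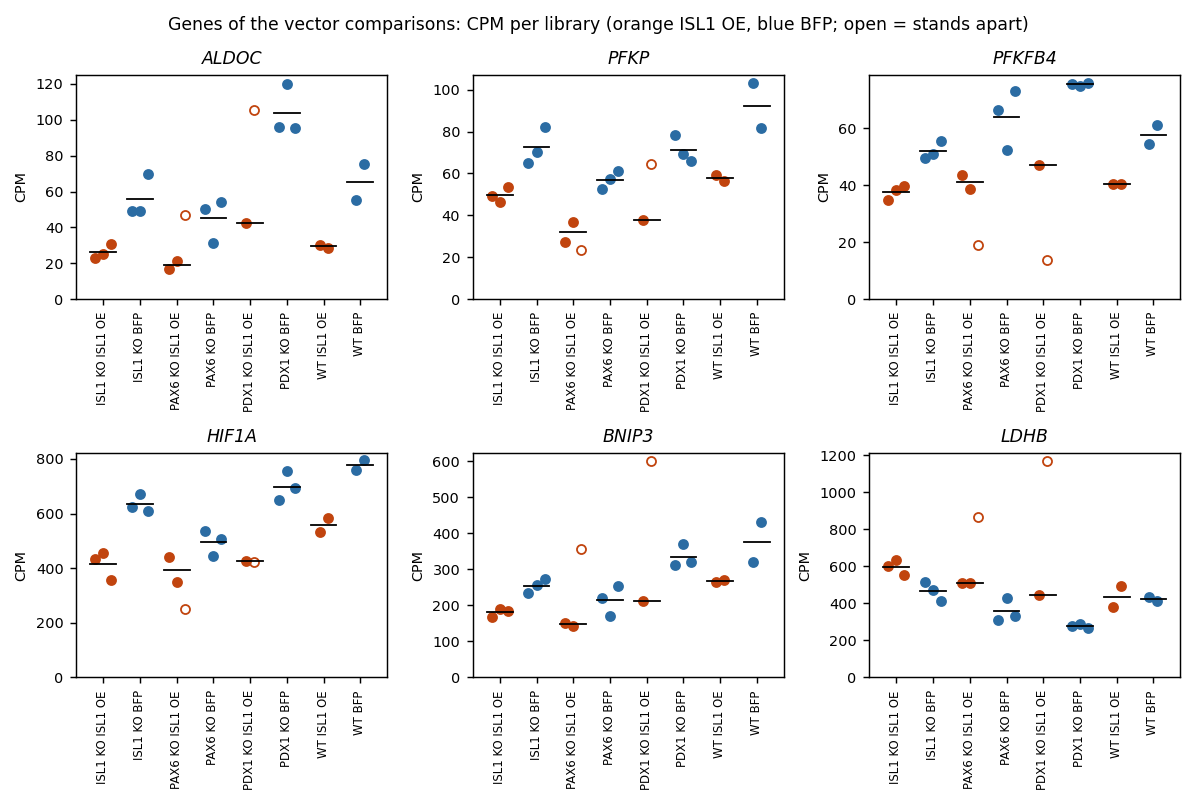
CPM per library for ALDOC, PFKP, PFKFB4, HIF1A, BNIP3 and LDHB, by group on the horizontal axis; orange points are ISL1 OE libraries, blue points BFP libraries, open points the libraries that stand apart, and bars the group means without them. In each genotype the filled orange points of ALDOC, PFKP, PFKFB4, HIF1A and BNIP3 lie below the blue ones.

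The mean of the 4 vector effects, each within its genotype, was added after the data were seen. Over all 21 libraries 8 of the 39 genes were lower and 1 higher (11.2% of all genes called). HIF1A (−0.58 ± 0.10, adjusted p = 0.00135), PFKP (−0.66 ± 0.11), PFKFB4 (−0.80 ± 0.18), ENO2 (−0.79 ± 0.18) and LDHB, the gene that was higher (0.69 ± 0.15), kept their calls whichever of the 21 libraries was left out. ALDOC (−0.85 ± 0.20), GPI, the isomerase after hexokinase (−0.32 ± 0.08), PFKM (−0.54 ± 0.14) and SLC16A3 (−0.52 ± 0.13) kept theirs in 18 to 19 of the 21 fits, with an adjusted p of at most 0.0935. With the 19 libraries 17 were lower and 5 higher (28%), and ALDOC was at −1.18 ± 0.13. In these, 20 of the 39 genes had a log2 fold change below 0 in all 4 genotypes, 51.3% of the list beside 20.5% of all genes, and 2, HK2 and LDHB, above 0 in all 4. In the 21 libraries 13 were below 0 in all 4, 33.3% beside 13.8%. The median over the list of the mean vector effect was −0.08 with all libraries and −0.22 with the 19, beside 0.05 and −0.003 over all genes.

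In WT the vector comparison added LDHA to the genes that moved. It had 238 and 329 CPM in WT ISL1 OE, against 596 and 788 CPM in WT BFP, and the 2 groups did not overlap. The log2 fold change was −1.29 ± 0.49 with all libraries (adjusted p = 0.979) and −1.28 ± 0.17 with the 19 (adjusted p = 0.001). ALDOA (−0.64 ± 0.12), TPI1 (−0.53 ± 0.11), PGK1 (−0.44 ± 0.11) and P4HA1 (−0.72 ± 0.17) were also lower in WT ISL1 OE in that fit. The 8 mesenchymal markers summed to 1470 and 1717 CPM in WT ISL1 OE, against 207 and 1151 CPM in WT BFP, and the 7 liver markers to 8108 and 8246 CPM, against 11239 and 12021 CPM. The part of these cells in the result was not tested. In ISL1 KO the same comparison gave LDHA −0.12 ± 0.14 with overlapping groups, and in PAX6 KO −0.13 ± 0.15.

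Whether the vector effect differed between genotypes was tested directly. With all 21 libraries 0 of the 39 genes passed in ISL1 KO minus WT (0.00451% of all genes called), 0 in PAX6 KO minus WT (0%) and 0 in PDX1 KO minus WT (1.37%), with 0, 0 and 14 of the 39 at an unadjusted p under 0.05. DESeq2 called 0, 0 and 5, and limma on TPM 0 in each, again without a share of all genes. With the 19 libraries LDHA passed in ISL1 KO minus WT (0.313% of all genes called), at 1.16 ± 0.21 (adjusted p = 0.0338), no gene passed in PAX6 KO minus WT (0.0565%, 7 at an unadjusted p under 0.05), where LDHA stood at 1.15 ± 0.22 (adjusted p = 0.0547), and NDRG1 (2.07 ± 0.26) and P4HA1 (1.59 ± 0.25) passed in PDX1 KO minus WT (3.28%).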

How the data were processed

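RNA-seq libraries were made with SMART-Seq v4, which does not keep strand, per the labels' protocols. The submitters' processing notes name STAR and the build GRCh38; further steps are not given in the sources used here. The authors deposited estimated counts and TPM per gene and per transcript, with a column for each sequencing lane. Lanes were summed per library and estimated counts rounded to whole numbers; TPM were averaged over lanes. Totals per library were 40959445 to 66818593, and the lowest correlation between lanes was 0.997. Columns of 3 further libraries, 12 in all, matched no label and were not used.

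Gene spans came from GENCODE 29. Symbols came from a separate list of gene names, and from GENCODE 29 for genes missing there. Transcript lengths were effective lengths estimated from the deposited counts and TPM. Counts were tested with edgeR 4.0.16 (quasi-likelihood F test, TMM scaling with factors of 0.707 to 1.15, filterByExpr, 1 mean per group), over 22184 genes in 21 libraries and 22990 genes in 19, with Benjamini-Hochberg adjustment; the threshold for a call was an adjusted p under 0.05. Every adjusted p given for a gene is from this test. Alternatives used DESeq2 1.42.0, limma 3.58.1 on log2(TPM + 1), total counts as scaling, no filter, only the groups compared, a replicate block, and each replicate left out in turn. Replicate numbers come from column names. Deviations of same-numbered ISL1 OE and BFP libraries correlated at 0.176, 0.382 and 0.346 in PAX6 KO and at 0.17, 0.099 and 0.307 in ISL1 KO. In PDX1 KO the value was −0.222 and in WT −0.031. The numbers were taken to pair libraries in PAX6 KO but not in the other genotypes. The replicate block was nonetheless fitted in both ISL1 KO and PAX6 KO. The main fit, with 1 mean per group, used no pairing in any genotype. The edgeR steps were tested on simulated data with a single dispersion for all genes and no library that stands apart. That test checks the steps and does not show how the fit of all 21 libraries behaves. Errors are SE for log2 fold changes and SD for levels.

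The listed genes, the lists of other genes and markers and the choice of the 2 libraries left out were made with earlier results of these data known. All 39 listed genes could be named; those called in a comparison with all libraries, or with the 19 and without overlap between groups, were given per library where the results turn on them. From the lists of other genes up to 4 called genes with the smallest adjusted p were named per comparison.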

Additional observations from a re-analysis of the deposited data

Results flagged for a closer look

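In a direct test the vector effect on 3 of the listed genes differed between a knockout and WT in edgeR's fit of the 19 libraries, and none of the 3 passed with all 21. For LDHA the log2 effect of ISL1 OE over BFP was −0.12 ± 0.14 in ISL1 KO, against −1.28 ± 0.17 in WT, a difference of 1.163 (adjusted p = 0.0338, and 1 with all 21 libraries).

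NDRG1 was at 1.48 ± 0.19 in PDX1 KO, against −0.59 ± 0.18 in WT, a difference of 2.072 (adjusted p = 0.000321, and 0.272 with all 21 libraries). P4HA1 was at 0.87 ± 0.18 in PDX1 KO, against −0.72 ± 0.17 in WT, a difference of 1.586 (adjusted p = 0.00193, and 0.118 with all 21 libraries). Both rest on 1 PDX1 KO ISL1 OE library, which is assumed to vary like the other groups. That library held 361 CPM of NDRG1 and 148 CPM of P4HA1, and the library left out held 136 and 97.1 CPM.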

How the results depend on the processing

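Counts of called genes depended mainly on the 2 libraries that stand apart. Without them the counts were 15, 26 and 26 in ISL1 KO, PAX6 KO and PDX1 KO against WT under BFP, 13, 10 and 5 under ISL1 OE, and 12, 19 and 14 for ISL1 KO against PAX6 KO, ISL1 KO against PDX1 KO and PAX6 KO against PDX1 KO. They were 6, 7, 12 and 7 for the vector in PAX6 KO, ISL1 KO, PDX1 KO and WT, 1 and 2 for the difference from WT in ISL1 KO and PDX1 KO, and 22 for the mean vector effect. With only the groups compared in the fit the counts were 15, 24 and 24 under BFP, 12, 18 and 14 between knockouts, 7, 0 and 3 for the vector in ISL1 KO, PDX1 KO and WT, and 0 and 0 for PAX6 KO and PDX1 KO against WT under ISL1 OE. DESeq2 gave 14 for PDX1 KO against WT under BFP, 1, 3 and 5 between knockouts, 1, 2 and 11 for the vector in ISL1 KO, PAX6 KO and PDX1 KO, 5 for the difference in PDX1 KO, and 2 and 7 for ISL1 KO and PAX6 KO under ISL1 OE. Limma on TPM gave 1 for PAX6 KO under BFP, 3 for ISL1 KO against PDX1 KO and 3 for PAX6 KO against PDX1 KO, and 2 for ISL1 KO under ISL1 OE. Total counts as scaling gave 2 for ISL1 KO against PDX1 KO and 2 for PAX6 KO under ISL1 OE, and without the filter 0 genes passed for PAX6 KO against PDX1 KO and 1 for the difference in PDX1 KO. Total counts also moved the median of all genes by 0.13, 0.13 and −0.15 under ISL1 OE, −0.17 for the vector in PDX1 KO, 0.12 for PAX6 KO against PDX1 KO, and −0.11 and −0.27 for the difference in PAX6 KO and PDX1 KO. The cause of these changes was not tested.

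Leaving out each replicate in turn, 1 to 2, 2 to 4 and 2 to 6 genes passed in ISL1 KO, PAX6 KO and PDX1 KO against WT under BFP, 1 to 1, 1 to 5 and 0 to 23 under ISL1 OE, 0 to 1, 0 to 0 and 0 to 0 between the knockouts, 0 to 0, 0 to 1, 0 to 22 and 0 to 0 for the vector in ISL1 KO, PAX6 KO, PDX1 KO and WT, 0 to 0, 0 to 0 and 0 to 20 for the differences, and 5 to 17 for the mean. The counts of 20, 22 and 23 come without PDX1 KO ISL1 OE replicate 2, which leaves the library that stands apart alone in its group.

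The direction turned for a few genes without the 2 libraries. BNIP3 was then at −0.53 for the vector in PAX6 KO, and in PDX1 KO at −0.64 (−0.51 with limma on TPM), ALDOA at −0.53 and LDHA at −0.48 in PDX1 KO (−0.47 without replicate 4 alone, 2.24 without replicate 2). Under ISL1 OE, LDHA was at −1.13 (−1.11 without replicate 4 alone, 1.60 without replicate 2) and PGAM1 at −0.52 in PDX1 KO against WT. GAPDH, PGAM1 and TPI1 were at −0.24, −0.22 and −0.33 for the mean vector effect. The cause was not tested. Of the other values of single genes under that setting, 36 kept their direction and side of the threshold, 153 passed where they had not and 1 no longer passed. The values counted were those called with all libraries, or called without the 2 libraries and without overlap between groups. The count of 153 thus follows from this choice and does not measure how gene values respond to leaving the libraries out.

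The replicate block, applied in ISL1 KO and PAX6 KO, gave counts of 1, 2 and 0 between knockouts and 7 for PAX6 KO under ISL1 OE, and the counts of the other comparisons stayed within 1.5 times. The share of PKM2 kept its value under both alternatives. WT has 2 libraries per vector, which limits each comparison with it, and PKLR and CA9 lay too low for a fold change.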
